A study of Equus caballus with 18 samples.

Results

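The genes described here build cholesterol from acetyl-CoA, sense its level, store or carry it, and make fatty acids. The list names 37 such genes. On the array 35 of the 37 had a probe set carrying exactly their symbol, and each of them only 1. IDI1 and FDPS had none and were not analysed here. The whole array holds 30559 probe sets and 16661 named genes. The list was drawn up with earlier results of these data known.

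RNA came from the synovial fluid of the right antebrachiocarpal joint, an upper joint of the equine wrist, in 6 exercised adult Thoroughbreds. All 6 received 8 mg of isoflupredone acetate (IPA), a synthetic corticosteroid, into that joint, and the 3 groups are the same horses at baseline before the injection, at 24 h and at day 7. The horses of the study were geldings and mares aged 4 to 8 years, and they were back at their regular exercise from day 3. Horses given saline were not analysed here, so drug, injection, repeated sampling and exercise cannot be told apart in any change with time.

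Animal cells make cholesterol in a long chain of steps, first to mevalonate and isoprenoids, then to squalene, and then through a series of sterol ring reactions. The chain is governed by SREBP transcription factors, which sit in the endoplasmic reticulum bound to the escort protein SCAP. When sterols are plentiful, INSIG proteins hold SCAP and SREBP back, and when sterols are scarce the pair travels to the Golgi, where SREBP is cut free to switch on the genes of synthesis, INSIG1 among them. Macrophages also take in cholesterol with the dead cells they engulf, and either store it as esters or export it.

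Expression is given on the log2 scale, 1 value for each probe set and array, and its precision is limited by how few arrays there are. Horses 1 and 2 had the same deposited value at 99.3% of probe sets on day 7, and at every one of the 35 genes, while no other pair of arrays shared more than 2.05%. Their day 7 columns were therefore averaged to 1 array, so that baseline and 24 h have 6 arrays each and day 7 has 5. Changes were fitted within horses with limma over all probe sets, and a gene is called when its Benjamini-Hochberg adjusted p is under 0.05. The SD of all values on an array was 1.37 ± 0.0931 at baseline (SD, n = 6), 1.56 ± 0.12 at 24 h (n = 6) and 1.70 ± 0.119 at day 7 (n = 5), and the medians of the arrays ran from 3.64 to 4.04. Markers of monocytes and macrophages, 14 of 16 listed being measured, had a mean level of 5.11 to 6.29 on the baseline arrays, 5.35 to 8.08 at 24 h and 6.49 to 8.07 at day 7. Of these 14 markers 8 were called higher at day 7 and 0 lower. Neutrophil markers, 7 of 12 listed being measured, averaged 3.76 to 4.81, 3.78 to 6.56 and 3.36 to 4.00 at the 3 times. At day 7, 1 of these 7 was called lower and 0 higher. Among lymphocyte markers, 3 of 12 for T cells, 2 of 12 for NK or cytotoxic cells and 2 of 7 for B or plasma cells were called lower. In each of these lists 0 were called higher. Markers of synovial fibroblasts (12 measured), chondrocytes (9) and endothelial cells (7) had 1 lower call each at day 7 and 0 higher. At 24 h, 2 of the 14 macrophage markers were called higher and 1 of the 12 NK or cytotoxic markers lower. Of all named genes 18% were called higher at day 7 and 8.43% lower, and at 24 h 0.72% were called higher and 0.126% lower. In fluid that holds several cell types, more cells of a type and more RNA per cell cannot be told apart, and the part of these shifts in the results below was not tested beyond the values given.

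At day 7, 17 of the 35 genes had risen above baseline, 9 of them enzymes of cholesterol synthesis, 3 of sterol sensing, 2 of storage and carriage and 3 of fatty acid synthesis, and the synthesis enzymes stood highest in horses 3, 4 and 5. INSIG1 rose 8.15-fold, SC5D 5.43-fold, SOAT1 3.99-fold and NSDHL 3.97-fold. Of the 35 genes, limma called 17 higher (48.6%) and 1 lower (2.86%), where of all probe sets 27.3% were called, 11.9% higher and 15.4% lower. Among named genes alone 18.0% were called higher and 8.43% lower. The median log2 change was 0.96 over the 35 genes and -0.04 over all named genes. At 24 h limma called 0 of the 35, where of all probe sets 1.01% were called, 0.543% higher and 0.471% lower. At an unadjusted p under 0.05, 5 of the 35 were higher and 2 lower at 24 h, against 7.78% and 12.1% of all probe sets, and at most 3 were called higher in any other setting tried. The median log2 change at 24 h was 0.22 over the 35 genes and 0.01 over all named genes. Averaged over the 35 genes, the day 7 change was 0.17 on the shared array and 1.70, 1.13, 0.97 and 0.76 in horses 3 to 6, and the 24 h change was 0.99 in horse 2, 0.68 in horse 6 and between -0.26 and 0.15 in the others.

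**Figure D1:**
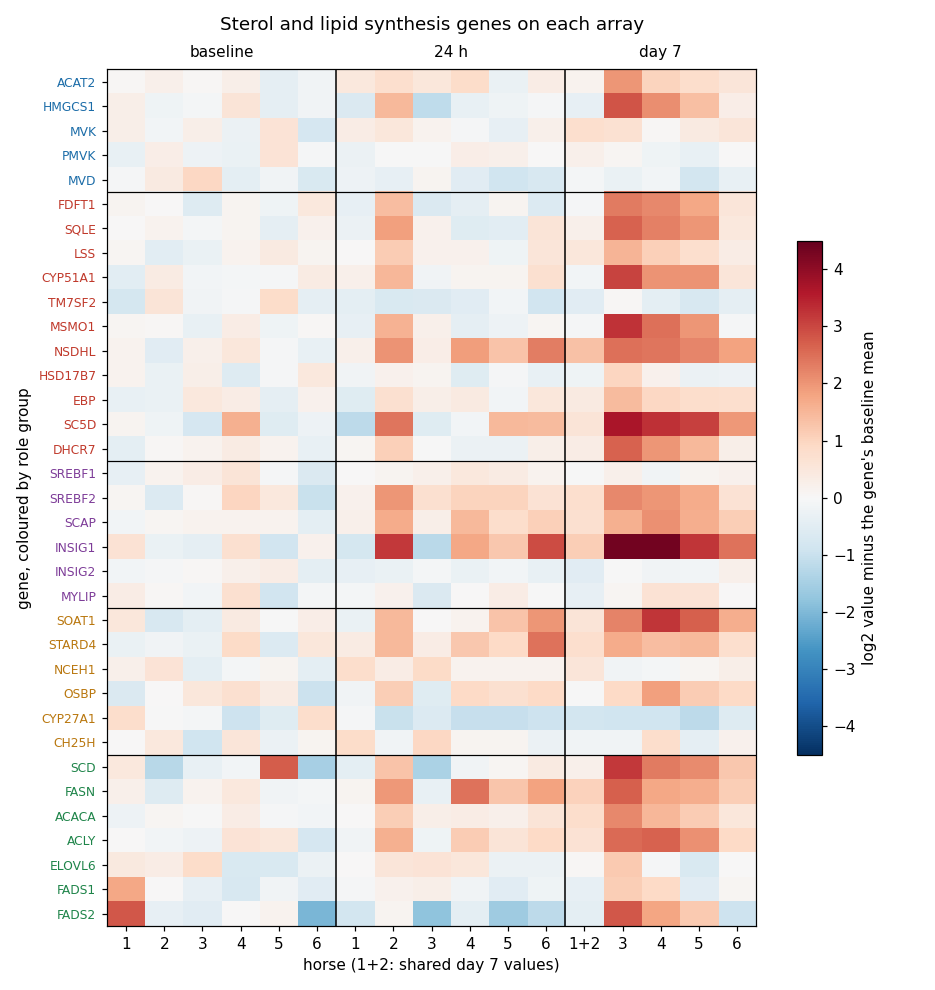
Each cell is a gene's log2 value on an array minus that gene's mean over the baseline arrays (red higher, blue lower), for 35 genes in rows, grouped and coloured by role, and 17 arrays in columns. The day 7 arrays of horses 3, 4 and 5 and the 24 h array of horse 2 are red across most synthesis genes, while the day 7 array shared by horses 1 and 2 is near baseline at many of them.

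Among the genes that sense sterols and control SREBP, 3 of 6 rose at day 7 and 0 fell. INSIG1, which retains the SREBP complex and is itself a target of SREBP, ran from 3.48 to 5.06 at baseline (mean 4.33 ± 0.63, SD, n = 6) and from 3.10 to 7.52 at 24 h (mean 5.51 ± 1.85, n = 6). On the day 7 arrays it was 5.42 for horses 1 and 2, 8.67 in horse 3, 8.67 in horse 4, 7.56 in horse 5 and 6.76 in horse 6. All day 7 values lay above all baseline values, and the 24 h values spread over both. The log2 change of INSIG1 at day 7 was 3.03 ± 0.76 (SE, adjusted p = 0.0159 by limma). INSIG1 was above its horse's baseline on 5 of 5 day 7 arrays, the shared array being set against the baseline mean of horses 1 and 2.

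SCAP, the escort of SREBP, ran from 5.23 to 5.82 at baseline and from 5.89 to 7.32 at 24 h. At day 7 it was 6.36 for horses 1 and 2 and 7.27, 7.72, 7.30 and 6.75 in horses 3 to 6. Neither later group overlapped with baseline. Its log2 change was 1.40 ± 0.27 at day 7 (SE, adjusted p = 0.00712) and 0.91 ± 0.25 at 24 h (adjusted p = 0.0832), so only the first was called. SREBF2, the gene of the SREBP that mainly drives cholesterol synthesis, had a mean of 5.31 ± 0.72 at baseline, 6.22 ± 0.60 at 24 h and 6.75 ± 0.71 at day 7 (SD, n = 6, 6 and 5). It rose by 1.42 ± 0.34 on the log2 scale at day 7 (SE, adjusted p = 0.014), though its day 7 range of 5.95 to 7.48 overlapped with the baseline range of 4.32 to 6.28.

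The close relatives of these genes gave other values. SREBF1, whose products mainly drive fatty acid synthesis, had a day 7 change of 0.05 (95% interval -0.42 to 0.51, adjusted p = 0.873). INSIG2, which does the same work as INSIG1 but is not known as a strong SREBP target, had one of -0.14 (95% interval -0.57 to 0.29, adjusted p = 0.601). The day 7 change of INSIG1 exceeded that of INSIG2 on 5 of 5 arrays, by 1.34 to 4.86, with the shared array counted once. The change of SREBF2 exceeded that of SREBF1 on 5 of 5 arrays, by 0.80 to 2.21. These pairs were picked after their values were seen and the differences were not tested. MYLIP, a ubiquitin ligase that lowers lipoprotein receptors at the cell surface, had a change of 0.21 (adjusted p = 0.585).

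**Figure D2:**
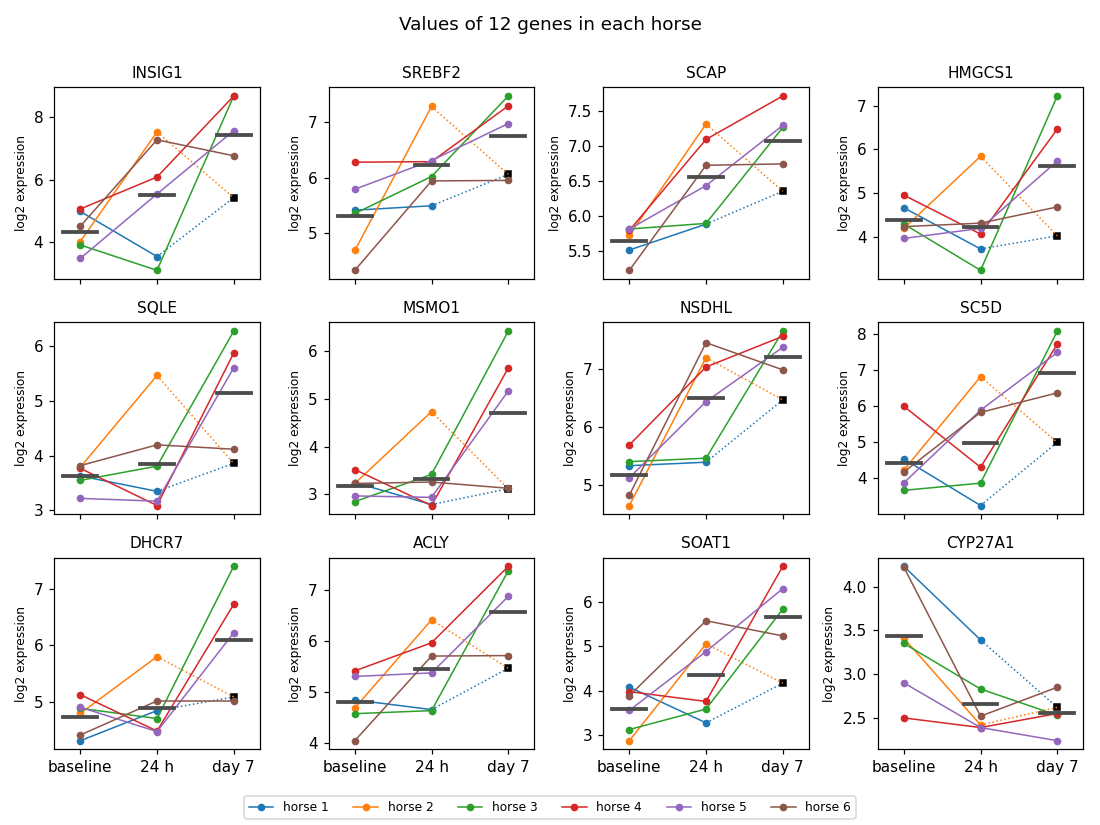
Log2 expression (vertical axis) of 12 genes at baseline, 24 h and day 7 in each horse (coloured points and lines), with grey bars at the group means. The black square is the day 7 array shared by horses 1 and 2, reached by dotted lines; INSIG1 and SQLE have every day 7 value above every baseline value, while MSMO1 and HMGCS1 have day 7 values at the baseline level as well as far above it.

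Of the 16 enzymes of cholesterol synthesis measured, 9 rose at day 7 and 0 fell, with a median log2 change of 1.06. In the mevalonate and isoprenoid steps this was 1 of 5. ACAT2, the cytosolic thiolase that joins acetyl-CoA units, rose by 0.89 ± 0.26 (log2 change, SE, adjusted p = 0.0279), from 4.22 ± 0.26 at baseline (SD, n = 6) to 5.12 ± 0.69 at day 7 (SD, n = 5). HMGCS1, which makes HMG-CoA, did not pass the test: its day 7 values were 4.02 for horses 1 and 2, then 7.22, 6.46, 5.73 and 4.68 in horses 3 to 6, against 3.96 to 4.95 at baseline. Horses 3 to 5 lay above the baseline range and the shared array within it. Its log2 change of 1.23 had a standard error of 0.53 (adjusted p = 0.0954). The mevalonate kinase MVK (0.53, adjusted p = 0.119), the phosphomevalonate kinase PMVK (-0.05, 0.877) and the decarboxylase MVD (-0.29, 0.34) did not pass either.

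In the squalene and sterol ring steps, 8 of 11 enzymes rose. NSDHL, which removes a carboxyl group from the sterol ring, ran from 4.64 to 5.69 at baseline, with a median of 5.22. It was 6.47 on the shared day 7 array and 7.66, 7.57, 7.38 and 6.99 in horses 3 to 6, all above baseline. Its log2 change was 1.99 ± 0.37 (SE, adjusted p = 0.00676), and at 24 h it was 1.33 ± 0.35 (adjusted p = 0.0742) with an increase in 6 of 6 horses.

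SQLE, squalene epoxidase, ran from 3.22 to 3.82 at baseline and was 3.86, 6.28, 5.88, 5.61 and 4.12 on the 5 day 7 arrays, in the same order. The groups did not overlap, but the shared array cleared the highest baseline value by very little. Its change was 1.52 ± 0.47 (log2, SE, adjusted p = 0.0317). MSMO1, a sterol methyl oxidase, ran from 2.85 to 3.52 at baseline and was 3.12 on the shared array, 6.41, 5.64 and 5.16 in horses 3 to 5, and 3.13 in horse 6. It was thus high in 3 arrays and at the baseline level in the other two, and its call was close to the threshold (1.50 ± 0.53, adjusted p = 0.0491).

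SC5D, a sterol desaturase, was 5.0 on the shared array and 8.08, 7.72, 7.49 and 6.37 in horses 3 to 6, against a baseline median of 4.21 and a highest baseline value of 6.00 in horse 4. Its log2 change was 2.44 ± 0.65 (SE, adjusted p = 0.0194). CYP51A1, the lanosterol demethylase, averaged 3.99 ± 0.32 over the baseline arrays (SD, n = 6) and 5.49 ± 1.27 over those of day 7 (SD, n = 5), and its log2 change was 1.47 ± 0.47 (SE, adjusted p = 0.036). Its shared array, at 3.85, stood below the baseline median of 3.91. 

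DHCR7, the reductase that makes cholesterol in the last step of one branch, ran from 4.32 to 5.13 at baseline and was 5.09, 7.39, 6.72, 6.22 and 5.02 at day 7, the shared array first. Horses 3 to 5 stood above baseline and the other two arrays within its range, and the log2 change was 1.32 ± 0.37 (SE, adjusted p = 0.0235). FDFT1, squalene synthase, ran from 4.22 to 5.27 at baseline and was 4.73, 7.14, 6.95, 6.53 and 5.34 at day 7, a change of 1.34 ± 0.46 (adjusted p = 0.0461). The sterol isomerase EBP rose by 0.80 ± 0.22 (adjusted p = 0.02), from 3.84 ± 0.38 to 4.69 ± 0.37 (SD, n = 6 and 5). Lanosterol synthase, LSS, was 5.06, 6.07, 5.62, 5.31 and 4.87 at day 7 against 4.09 to 4.96 at baseline, so that only horse 6 overlapped, but its change of 0.83 ± 0.30 missed the threshold (adjusted p = 0.055). The reductase TM7SF2 at -0.41 (adjusted p = 0.242) and HSD17B7 at 0.09 (adjusted p = 0.792) did not pass.

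**Figure D3:**
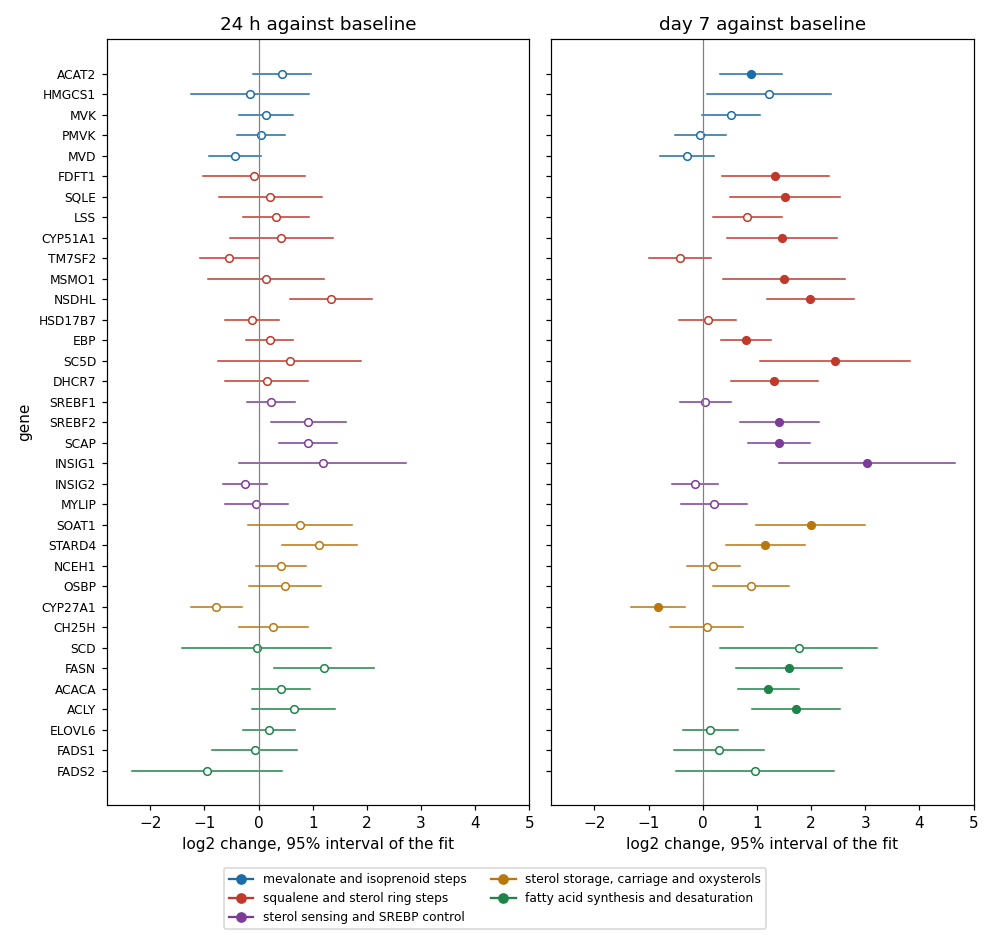
Fitted log2 changes against baseline (horizontal axis) at 24 h (left) and day 7 (right) for 35 genes, with 95% intervals; filled points were called and colours give the role. All points at 24 h are open, and at day 7 there are 17 filled points to the right of 0 and 1, CYP27A1, to the left.

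Of 6 genes of sterol storage, carriage and oxysterol formation, 2 rose and 1 fell at day 7. SOAT1, which esterifies cholesterol for storage, ran from 2.88 to 4.08 at baseline. At day 7 it was 4.17 on the shared array and 5.83, 6.79, 6.29 and 5.23 in horses 3 to 6, with no overlap between the groups. Its log2 change was 2.00 ± 0.47 (SE, adjusted p = 0.0131). STARD4, a cytosolic sterol carrier, rose by 1.16 ± 0.34 (adjusted p = 0.027), and its change at 24 h was close to that, at 1.12 ± 0.32 (adjusted p = 0.091).

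CYP27A1, a mitochondrial enzyme that forms an oxysterol, fell from a mean of 3.44 ± 0.70 at baseline (SD, n = 6) to 2.56 ± 0.22 at day 7 (SD, n = 5). Its values ran from 2.50 to 4.23 at baseline and from 2.24 to 2.85 at day 7, so the groups overlapped. Its log2 change was -0.83 ± 0.23 (SE, adjusted p = 0.0231), lower on 4 of 5 day 7 arrays with the shared array counted once. This probe set was dim, with 20.2% of probe sets at or below its mean, and the call was lost after quantile normalization and after median centring. The oxysterol carrier OSBP (0.89, adjusted p = 0.0575), the cholesteryl ester hydrolase NCEH1 (0.19, 0.523) and the oxysterol-forming CH25H (0.07, 0.872) did not pass.

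Of 7 genes of fatty acid synthesis, 3 rose at day 7 and 0 fell, and these 3 carry citrate to palmitate. ACLY, which makes acetyl-CoA from citrate, ran from 4.05 to 5.42 at baseline and was 5.47, 7.38, 7.47, 6.88 and 5.72 at day 7, the shared array first. It rose by 1.73 ± 0.38 (log2 change, SE, adjusted p = 0.0107). ACACA, the acetyl-CoA carboxylase, ran from 4.13 to 4.70 and was 5.15, 6.55, 5.87, 5.53 and 4.89 at day 7, a change of 1.21 ± 0.26 (adjusted p = 0.0103). FASN, the fatty acid synthase, ran from 4.50 to 5.57 and was 6.12, 7.76, 6.84, 6.72 and 6.20, a change of 1.59 ± 0.46 (adjusted p = 0.0248). In each of the 3 the day 7 arrays lay above all baseline arrays.

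The desaturases and the elongase did not pass. SCD, the stearoyl-CoA desaturase, was 5.95, 8.91, 8.05, 7.86 and 6.94 at day 7, but its baseline values ran from 4.23 to 8.45, the highest being that of horse 5. Its change was 1.77 ± 0.68 (adjusted p = 0.0653), or 2.31 (adjusted p = 0.0331) without the baseline array of horse 5. FADS2, a desaturase of polyunsaturated fatty acids, was 8.09 at baseline in horse 1 and 3.23 to 5.44 in the other baseline arrays. Its day 7 change was 0.96 ± 0.68 (adjusted p = 0.283), or 1.52 (adjusted p = 0.0515) without that array. FADS1, the other such desaturase, was likewise highest at baseline in horse 1, at 6.03 (change 0.30, adjusted p = 0.56; 0.64, adjusted p = 0.11, without that array). The 12 markers of synovial fibroblasts averaged 5.52 on the baseline array of horse 1 and 3.99 to 4.32 on the other baseline arrays, and their part in the FADS values was not tested. Over all leave-outs of a horse or array, the day 7 change of SCD ran from 1.23 to 2.31. That of FADS2 ran from 0.36 to 1.65, and that of FADS1 from -0.00629 to 0.66. The elongase ELOVL6 had a change of 0.14 (adjusted p = 0.663).

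In all, 8 of the 35 genes had day 7 values that lay wholly above baseline, where over all probe sets 3.62% did, and 0 lay wholly below, where 8.11% did. Among named genes these shares were 5.41% and 3.73%. The 8 were SQLE, NSDHL, INSIG1, SCAP, SOAT1, ACLY, ACACA and FASN. At 24 h only SCAP had no overlap with baseline (0.347% of all probe sets lay wholly above it, and 0.877% below).

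Horses differed widely in the level of the synthesis enzymes after the injection. The mean over the 16 enzymes lay between 4.15 and 4.40 on the 6 baseline arrays. At day 7 it was 6.06 in horse 3, 5.55 in horse 4, 5.26 in horse 5, 4.67 in horse 6 and 4.43 on the array shared by horses 1 and 2. The values of 7 of the 16 enzymes spanned more than 2 log2 units across the day 7 arrays, where 8.11% of all named genes did. At baseline 1 of 16 did, against 9.99% of named genes. The median SD between arrays over the enzymes went from 0.36 at baseline to 0.61 at day 7, while over all named genes it was 0.44 and 0.37.

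The day 7 array of horse 3 held the highest of the 17 values for 12 of the 16 enzymes and for 18 of the 35 genes, and for 2.23% of all named genes. The number of enzymes remained 12 after quantile normalization and after median centring, both added after the data were seen. Horse 4's day 7 array held the highest value for 15.7% of named genes and for 0 of the 16 enzymes. Macrophage markers followed another order over the same arrays: their mean was 7.01 in horse 3, 8.07 in horse 4, 7.52 in horse 5, 8.04 in horse 6 and 6.49 on the shared array. Other measures divided the day 7 arrays as the enzymes did, with horses 3 to 5 on one side. Neutrophil markers averaged 3.65, 3.36 and 3.38 in horses 3 to 5, 3.99 in horse 6 and 4.00 on the shared array, and chondrocyte markers 3.70, 3.48 and 3.48, then 4.17 and 4.31. The array SD was 1.71, 1.82 and 1.81 in horses 3 to 5, 1.66 in horse 6 and 1.53 on the shared array. The part of these markers in the enzyme levels was not tested.

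**Figure D4:**
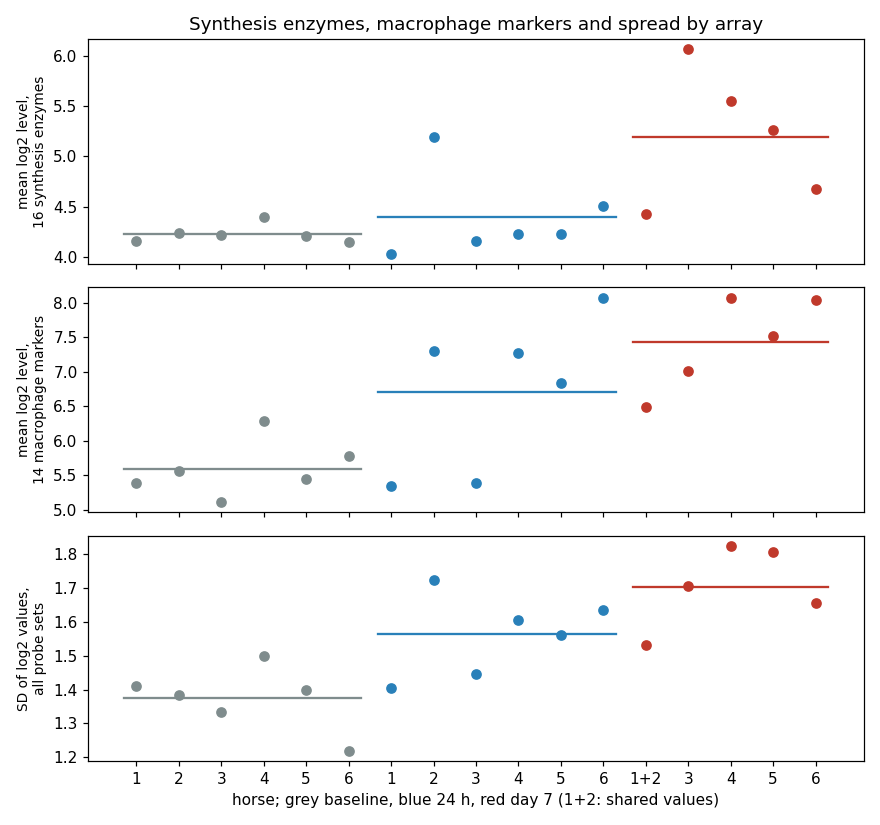
For each of the 17 arrays, the mean log2 level of 16 cholesterol synthesis enzymes (top), the mean log2 level of 14 macrophage markers (middle) and the SD of all log2 values (bottom), with lines at the group means. From baseline to 24 h and day 7 the group means rise for the enzymes (4.23, 4.39 and 5.19) and for the macrophage markers (5.59, 6.70 and 7.43). Horse 6 has among the highest macrophage marker means at 24 h and day 7 (8.08 and 8.04) with enzyme means of 4.51 and 4.67, and horse 3 at day 7 has the highest enzyme mean, 6.06.

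At 24 h the enzymes stood apart in horse 2. Its enzyme mean was 5.20, against 4.04 to 4.51 in the other 5 horses. SQLE was 5.47 there and at most 4.20 in the others, HMGCS1 was 5.84 and at most 4.31, and FDFT1 was 6.17 and at most 4.93. The macrophage marker mean at 24 h was 5.35, 7.30, 5.39, 7.27, 6.84 and 8.08 in horses 1 to 6. The enzyme mean was 4.04, 5.20, 4.16, 4.23, 4.235 and 4.51 in the same order. Horses 1 and 3 were lowest and horses 2 and 6 highest in both means, and the part of the macrophage markers in the enzyme levels was not tested. The 24 h array of horse 2 also had the lowest mean of neutrophil markers at that time (3.78, against 4.72 to 6.56), the highest of T cell markers (6.59, against 4.51 to 5.72) and the highest array SD (1.72, against 1.40 to 1.64), and their part in the enzyme levels was not tested.

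INSIG1 was high at 24 h in more horses than SQLE was. It reached 7.52 in horse 2, 7.27 in horse 6, 6.08 in horse 4 and 5.54 in horse 5, and was 3.54 and 3.10 in horses 1 and 3, where macrophage markers were lowest (5.35 and 5.39). Those arrays also had the lowest array SD at 24 h (1.40 and 1.45, against 1.56 to 1.72). Their T cell markers were lowest too (4.98 and 4.51, against 5.32 to 6.59). The part of these measures in the INSIG1 values was not tested. The 24 h change of INSIG1 was 1.18 ± 0.72 (SE, adjusted p = 0.381), or 0.61 (adjusted p = 0.738) without the array of horse 2. Other genes with an unadjusted p under 0.05 at 24 h, beside NSDHL, SCAP and STARD4, were SREBF2 (log2 change 0.92, adjusted p = 0.146), FASN (1.21, adjusted p = 0.151), TM7SF2 (-0.54, adjusted p = 0.252) and CYP27A1 (-0.78, adjusted p = 0.0859).

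Between day 7 and 24 h, limma called 0 of the 35 genes, and 0% of all probe sets in either direction. At an unadjusted p under 0.05, 14 of the 35 were higher at day 7 and 0 lower, where 7.41% of all probe sets were higher and 5.79% lower. The smallest p-values were those of DHCR7 (log2 difference 1.18 ± 0.37, SE, adjusted p = 0.265), FDFT1 (1.44 ± 0.46, adjusted p = 0.27) and ACACA (0.79 ± 0.26, adjusted p = 0.275). With array weights, whose estimation did not fully converge, limma called 15 of the 35 higher at day 7 than at 24 h, where 9.65% of all probe sets were called higher and 6.12% lower. This comparison shares the day 7 arrays with the one above.

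Genes around the pathway were followed in lists drawn from general knowledge of sterol biology, but chosen with earlier results of these data known. At day 7, where 18.0% of named genes were called higher and 8.43% lower, the lists had only higher calls. At 24 h, where 0.72% of named genes were called higher and 0.126% lower, the 5 lists had 2 higher calls and 0 lower. Partners of SREBP processing and degradation in the endoplasmic reticulum had 5 of 12 higher: VCP, an ATPase that extracts proteins for destruction (log2 change 1.85 ± 0.39, SE), AUP1, a lipid droplet protein (1.80 ± 0.39), MBTPS2, the protease that frees SREBP in the Golgi (1.04 ± 0.29), HSP90B1, a chaperone (2.20 ± 0.69), and ERLIN2. The list's median change was 0.64.

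A list of nuclear receptors (the oxysterol receptors LXR, their RXR partners and the bile acid receptor NR1H4) with targets of LXR had 6 of 11 higher at day 7, with a median of 1.00. The 6 included the partner RXRA (1.00 ± 0.29, log2 change, SE) and the receptor NR1H3 (1.11 ± 0.36). ABCA1, the cholesterol exporter, rose by 1.94 ± 0.34 (log2 change, SE), LPCAT3, which remodels phospholipids, by 2.58 ± 0.49, PLTP, a phospholipid transfer protein, by 1.63 ± 0.41, and SMPDL3A by 1.65 ± 0.45. ABCA1 was also called at 24 h (1.75 ± 0.33, adjusted p = 0.0322). Lysosomal and membrane sterol transport had 8 of 17 higher, with a median of 1.06. Among these, NPC1, which carries cholesterol out of lysosomes, rose by 1.31 ± 0.27 and SCARB1, a lipoprotein receptor, by 1.27 ± 0.30. The sterol-binding relatives of OSBP, OSBPL8 and OSBPL11, rose by 2.33 ± 0.42 and 1.85 ± 0.37.

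Side branches to isoprenoids and ketone bodies had 3 of 12 higher (median 0.37): ACAT1, the mitochondrial thiolase, at 1.86 ± 0.36, FNTA, a farnesyltransferase subunit, at 1.87 ± 0.55 and DHDDS, of dolichol synthesis, at 0.76 ± 0.25. Other lipogenic genes had 7 of 19 higher (median 0.50), with ME1, the malic enzyme that supplies NADPH, at 1.83 ± 0.41, the elongases ELOVL1 at 2.42 ± 0.56 and ELOVL5 at 1.48 ± 0.39, and ACSL4, an acyl-CoA synthetase, at 1.82 ± 0.43. ACSL4 was also called at 24 h (1.86 ± 0.41, adjusted p = 0.0492).

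The count of 17 genes higher at day 7 rested on horses 3, 4 and 5. Leaving out the day 7 array of horse 3, 4 or 5 left 5, 9 or 6 genes, and leaving out every array of that horse left 6, 8 or 4. Leaving out the baseline array of horse 2 or 3 left 10 or 11. Calls fell over the whole array too, where 11.9% of all probe sets were called higher as reported. Without the day 7 array of horse 3, 4 or 5 this share was 4.1%, 5.98% or 3.97%. Without every array of that horse it was 3.91%, 6.1% or 2.45%. Without the baseline array of horse 2 or 3 it was 6.89% or 8.76%. NSDHL, SCAP, ACACA and ACLY kept their call whichever horse or single array was left out, and in 37 of 38 alternative settings. 

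The other 13 rises lost their call in some of these leave-outs, without a change of sign in any. INSIG1 lost it without the day 7 array of horse 3 (2.38, adjusted p = 0.0567) or horse 5 (2.88, adjusted p = 0.0533) and without all arrays of horse 4 (2.89, adjusted p = 0.0541) or horse 5 (2.79, adjusted p = 0.0738). SREBF2 lost it without the day 7 array of horse 3 (1.22, adjusted p = 0.0533) and without all arrays of horse 3 or 5, and SOAT1 without all arrays of horse 3 or 5. The calls of FDFT1 and MSMO1 were the least stable, being kept in 13 of 38 and 13 of 37 settings. CYP51A1 kept its call in 21 of 38, and ACAT2 and SQLE in 24. Quantile normalization also took away the calls of ACAT2, SQLE, CYP51A1, DHCR7, SREBF2, FASN, FDFT1 and MSMO1. With it 5.3% of all probe sets were called higher, against 11.9% as reported. Median centring took away those of FDFT1 and MSMO1. CYP27A1, the gene that fell, kept its call in 24 of the 36 settings that tested it.

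In 1 setting, with the SD of each array as a covariate, limma called 0 of the 35 genes and 0 of all 30559 probe sets at day 7, and 9 of the 17 rises changed sign. The array SD was higher at the later times, when the genes were too, and its part in the changes was not tested beyond that fit.

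**Figure D5:**
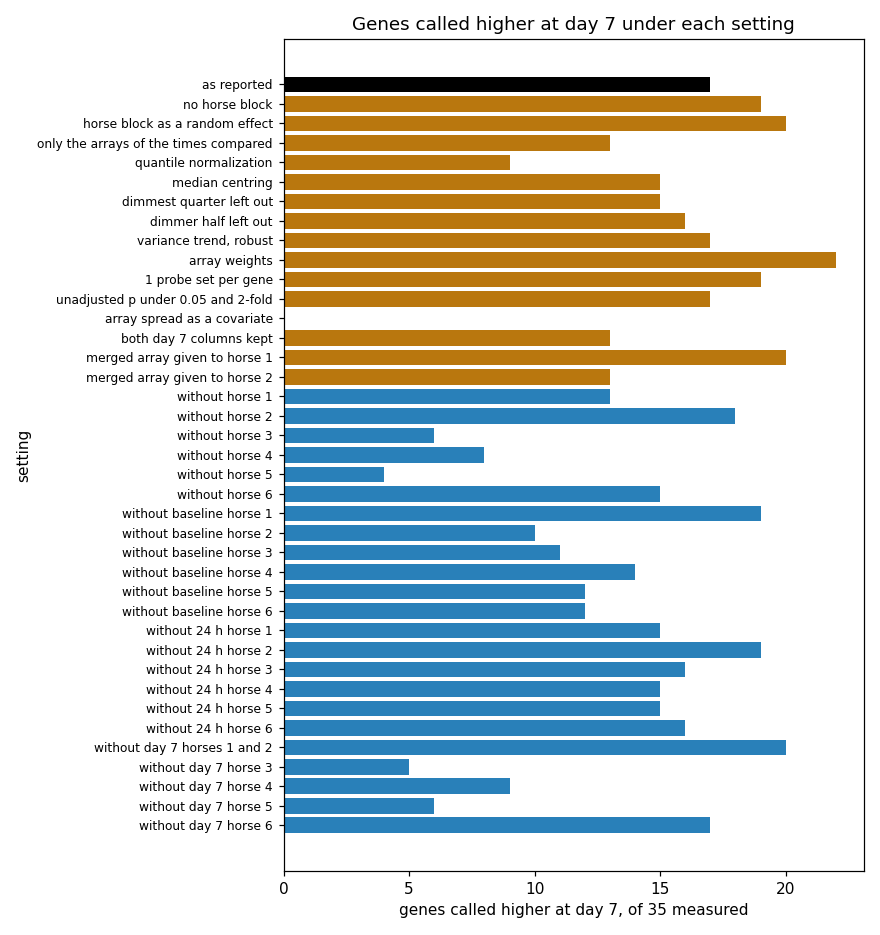
Number of the 35 genes called higher at day 7 than at baseline (bars, from 0) as reported (black), with another processing choice (ochre) and with a horse or a single array left out (blue). The count as reported is 17, it is 4 to 9 when horse 3, 4 or 5 or its day 7 array is left out, and 0 with array spread as a covariate. Of all probe sets 11.9% were called higher as reported, and 2.45% to 6.1% with horse 3, 4 or 5 or its day 7 array left out.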

How the data were processed

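Total RNA of equine synovial fluid was profiled on 18 Affymetrix arrays. The authors deposited log2 expression values per probe set, from 1.05 to 13.68 with no missing value; per the submitters' processing notes, the tools were Transcriptome Analysis Console 3.0, RMA and Affymetrix Expression Console, with no role or order given. Array medians ran from 3.64 to 4.04; how the arrays were normalized is not given in the sources used here beyond these names. Symbols came from the platform's annotation, which can be old: 16789 probe sets had 1 symbol, 343 several and 13427 none. For a named gene with several, the one of highest mean was used.

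The members and lists were chosen with earlier results of these data known. All 35 members are named, with full values for those called or changed most in their role. From each related list up to 4 called genes with the smallest p are named. The lists of SREBP partners and of nuclear receptors with LXR targets go beyond this, with every gene called higher at day 7 named.

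Changes with time were fitted by limma 3.58.1 under R 4.3.3 (lmFit and eBayes, both tails, residual degrees of freedom 9 and prior 4.71), with Benjamini-Hochberg adjustment over all 30559 probe sets. The horse, named in the titles at each time, was a fixed block; the merged day 7 array counted in equal parts for horses 1 and 2. Once time means were subtracted, the median correlation was -0.0235 for the 14 pairs of arrays within a horse and -0.00367 for the 70 pairs between horses, so the pairing rests on the titles. The p-values measure the spread of the arrays left after time and horse were fitted, pooled over all times and drawn by eBayes towards that of all probe sets. Alternatives were the block, arrays used, normalization, filters, variance model, array weights, features tested, threshold, array spread, the merged array, and leaving out horses or arrays. Figures used matplotlib 3.10.9 in Python 3.11.15.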

Additional observations from a re-analysis of the deposited data

Results flagged for a closer look

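Within a time, 3 of 105 groups of values had an array far from the others by Dixon's criterion, which chance alone meets in about 1 of 20 groups. MSMO1 at 24 h was 4.73 in horse 2, and the next highest of the 6 values was 3.42. SC5D at baseline was 6.00 in horse 4, against 4.54 for the next, and FADS1 at baseline was 6.03 in horse 1, against 4.32.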

How the results depend on the processing

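For the call counts, 23 settings left out a horse or an array and 15 changed another choice. The number of genes called higher at day 7 ran from 4 to 20 over the left-out settings, and was 9 after quantile normalization and 0 with array spread as a covariate. The number called lower there, 1 as reported, ran from 0 to 1 when a horse or array was left out and was 0 on the arrays of the times compared, after quantile normalization, after median centring, under either filter on dim probe sets, at an unadjusted p with a 2-fold change, and with array spread as a covariate; CYP27A1 was too dim for both filters. At 24 h the number called higher ran from 0 to 2 when a horse or array was left out, was 1 with the horse as a random effect, and 3 at an unadjusted p with a 2-fold change. Between day 7 and 24 h it was 15 with array weights, whose estimation did not fully converge, and 12 at an unadjusted p with a 2-fold change. Without the replicate block 19 genes were called higher at day 7 and 1 lower, and 0 at 24 h, and no count among the 35 moved past 1.5 times; over all probe sets lower calls at 24 h went from 144 to 271. After quantile normalization the whole array had 1620 higher and 1252 lower calls at day 7, against 3646 and 4697, and 65 and 34 at 24 h, against 166 and 144. Among single log2 changes at day 7, signs turned for PMVK after quantile normalization (0.14), median centring (0.10) and with both day 7 columns kept (0.00333), for SREBF1 after quantile normalization (-0.39) and with array weights (-0.071), and for INSIG2 after median centring (0.012). With array spread as a covariate they turned for HMGCS1 (-1.14), PMVK (0.37), FDFT1 (-0.068), SQLE (-0.44), LSS (-0.049), CYP51A1 (-0.089), TM7SF2 (0.084), MSMO1 (-0.49), HSD17B7 (-0.090), SC5D (-0.70), SREBF1 (-0.060), SREBF2 (-0.12), INSIG1 (-0.79), MYLIP (-0.62), SOAT1 (-0.27), OSBP (-0.42), SCD (-1.08), ACLY (-0.10), ELOVL6 (-0.089), FADS1 (-0.98) and FADS2 (-2.61), and at 24 h for 13 of the 35 genes, INSIG1 among them (-1.04); the cause was not tested. Leaving out a horse or array turned signs of CH25H (-0.17 to 0.24), ELOVL6 (-0.022 to 0.26), FADS1 (-0.00629 to 0.66), HSD17B7 (-0.069 to 0.27), MYLIP (-0.075 to 0.43), PMVK (-0.16 to 0.16) and SREBF1 (-0.13 to 0.23). The median change of all probe sets at day 7 was -0.24 as deposited, -0.09 after median centring and -0.06 after quantile normalization, and the share of all calls that were higher was 43.7%, 60.2% and 56.4%. No member had a further probe set with only its symbol, so that alternative was not run. Signal over background was not used here.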
